A study of Mus musculus with 27 samples.

Results

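The 10 genes described here make cyclic AMP and carry its main signal in C2C12 cells. They are 5 adenylyl cyclases (Adcy3, Adcy4, Adcy6, Adcy7 and Adcy9), 2 catalytic subunits of protein kinase A, or PKA (Prkaca and Prkacb), and 3 of its regulatory subunits (Prkar1a, Prkar2a and Prkar2b). They were chosen by gene symbol, with earlier results of these data known, from the 24825 genes measured. Each had a value, 0 included, for every sample. C2C12 is a mouse myoblast line, and its cells carried a retroviral control construct (control cells), full-length NFIA (full-length NFIA-expressing cells) or NFIA without its C-terminal proline-rich pro#3 domain (Δpro#3 mutant-expressing cells). Each of the 3 kinds of cells was collected at day 0, at day 7 of adipocyte differentiation, and at day 7 after 4 hours with 10 µM forskolin, with 3 samples in each of the 9 groups. All cells at day 7 had received the same adipogenic cocktail, which began with isobutylmethylxanthine, an inhibitor of phosphodiesterases, and held indomethacin, dexamethasone, insulin, triiodothyronine and rosiglitazone. Whether the infected cells were clones or pools, and whether the 3 samples of a group came from separate cultures, was not given in the sources used here, so p-values measure only the spread between these samples, which may be technical. Both constructs were expressed from a vector, and the NFIA levels therefore do not represent an endogenous gene.

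Adenylyl cyclases are membrane enzymes that turn ATP into cyclic AMP when a G protein, or forskolin, activates them. In the resting PKA tetramer, a dimer of regulatory subunits holds the catalytic subunits inactive. Cyclic AMP binds the regulatory subunits and frees the catalytic subunits, which in adipocytes phosphorylate proteins of the lipid droplet and lipases and, in the nucleus, the transcription factor CREB. In fat, RIIβ, the product of Prkar2b, is the regulatory subunit for which the tissue is best known.

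PolyA RNA was sequenced, and each value is an FPKM, the number of fragments relative to a gene's length and to all fragments of the sample. The samples held 9567769 to 27230965 fragments each. Levels of different genes are compared only as FPKM, which are per length, while fold changes are on the log2(FPKM + 1) scale, which understates the change of genes at low levels. A gene was called higher or lower when limma's adjusted p was under 0.05 and FPKM + 1 differed by more than 1.5-fold, and genes with a mean under 0.5 FPKM were not tested. Nfia was at 0.0885 to 7.35 FPKM in control cells, the highest value in 1 sample of day 0, and at 225, 249 and 250.2 FPKM in full-length NFIA-expressing cells at day 0. In Δpro#3 mutant-expressing cells it was at 423, 398 and 397 FPKM at day 0. Marker genes of both cell types differed between the groups. The summed FPKM of 14 muscle markers at day 7 were 17163 to 20141 in control, 2554 to 3556 in full-length NFIA-expressing and 18927 to 19951 in Δpro#3 mutant-expressing cells, and all 14 were lower with full-length NFIA. Those of 10 adipocyte markers were 363 to 401, 13675 to 15185 and 639 to 2068, the last being replicate 1 of the mutant, and all 10 were higher with full-length NFIA. At day 0, the sums were 1751 to 1865, 145 to 153 and 432 to 441 FPKM for muscle and 43.4 to 52.6, 437 to 464 and 323 to 339 FPKM for adipocyte markers, with Cidec and Retn at 0 in all 3 control samples and Retn also in all 3 full-length NFIA-expressing samples. Replicate 1 stood apart from the other replicates in 3 groups, by a chi-square per gene between samples. It was 14.4 and 14.0 against 5.95 between the others in the mutant at day 7, 13.5 and 15.0 against 3.40 in full-length NFIA-expressing cells with forskolin, and 11.9 and 14.0 against 6.04 in the mutant with forskolin, and at most 6.64 in the other 6 groups. Leaving out the control sample with 7.35 FPKM of Nfia changed no call among the members, and leaving out replicate 1 of the mutant at day 7 changed that of Prkaca. Without replicate 1 of full-length NFIA-expressing cells with forskolin, Adcy9 and Prkar2b each lost a call on the response to forskolin, and without that of the mutant with forskolin, Prkacb gained a call against full-length NFIA (0.59), each of them close to 1.5-fold. In these bulk samples, fewer cells of a type cannot be told apart from less RNA per cell, and the part of the change in cell types in the differences below was not tested.

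Most of the 10 genes were expressed at substantial levels. Prkar1a was the highest in 8 of the 9 groups, at 130.3 to 197 FPKM as group means, and Prkaca was the higher of both catalytic subunits throughout, at 62.6 to 111 FPKM. The exception was day 7 of full-length NFIA-expressing cells, where both Prkar2b and Prkaca had higher mean FPKM than Prkar1a. Among the cyclases, Adcy6 and Adcy7 accounted for most of the mRNA. Adcy9 lay between 3.55 and 7.07 FPKM, and Adcy3 did not exceed 2.41 FPKM as a group mean. Adcy4 had 0 to 13 fragments per sample and no group mean above 0.102 FPKM, so that 9 of the 10 genes passed the filter on low values and were tested. No fragment of Adcy4 was counted in 3 samples of Δpro#3 mutant-expressing cells, where a count of 0 allows up to 0.048 to 0.0574 FPKM (3 fragments, counting error only).

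**Figure D1:**
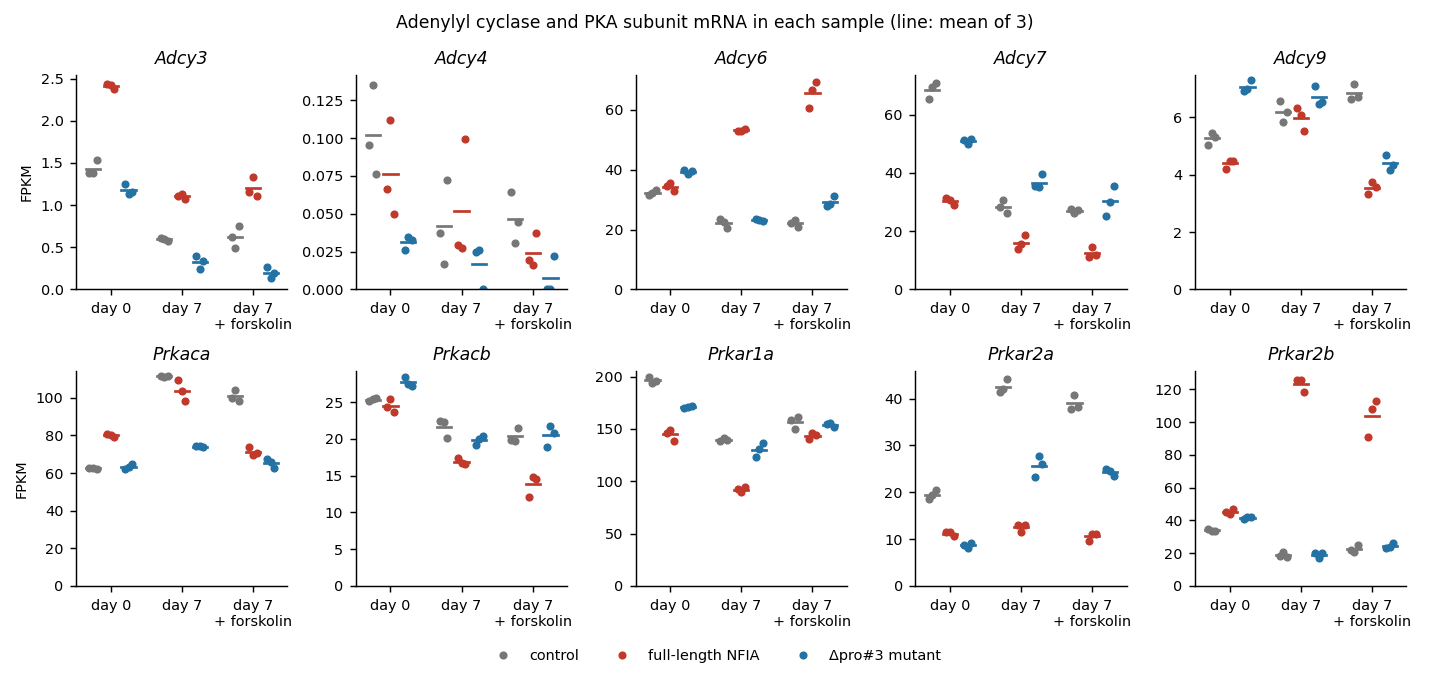
FPKM (y axis, linear, from 0) of each of the 10 genes in each of the 27 samples, grouped on the x axis by stage and coloured by construct. Points are samples and lines the means of 3. Prkar2b stands at 126, 126 and 118 FPKM in full-length NFIA-expressing cells at day 7, above all other 24 samples, and Prkar2a is highest in control cells at day 7.

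Full-length NFIA was compared with the control at each stage to ask which cyclases and subunits followed its expression, and the Δpro#3 mutant to ask which did so without the pro#3 domain. At day 0, 2 of the 9 tested genes were lower with full-length NFIA (Adcy7 and Prkar2a), where 24.5% of all genes tested were called, and 1 was lower with the mutant (Prkar2a), where 14.0% were called. At day 7, 5 of 9 were called with full-length NFIA (Adcy6 and Prkar2b higher, Adcy7, Prkar1a and Prkar2a lower) beside 35.5% of all genes, and 1 of 9 with the mutant (Prkar2a lower) beside 12.7%. With forskolin, 5 of 9 were called with full-length NFIA (Adcy6 and Prkar2b higher, Adcy7, Adcy9 and Prkar2a lower) beside 34.5%, and 2 of 9 with the mutant (Prkaca and Prkar2a lower) beside 12.8%. At day 7, full-length NFIA gave a median log2 fold change of -0.10 over the 9 genes and -0.08 over all genes, and the mutant -0.10 and -0.04. Against full-length NFIA, the mutant differed in 2 of 9 genes at day 0 (15.6% of all genes), 5 of 9 at day 7 (26.1%) and 5 of 9 with forskolin (27.2%). At more than 3-fold, Prkar2a and Prkar2b were called for full-length NFIA against control at day 7 (8.17% of all genes) and with forskolin (8.02%), and Prkar2b for the mutant against full-length NFIA at day 7 (6.30%) and with forskolin (6.20%). These comparisons share samples, so they are not separate pieces of evidence. With forskolin, the median of all genes lay at -0.17 for full-length NFIA against control, and relative to it the called genes had 1.69 (Adcy6), -0.89 (Adcy7), -0.61 (Adcy9), -1.62 (Prkar2a) and 2.32 (Prkar2b).

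**Figure D2:**
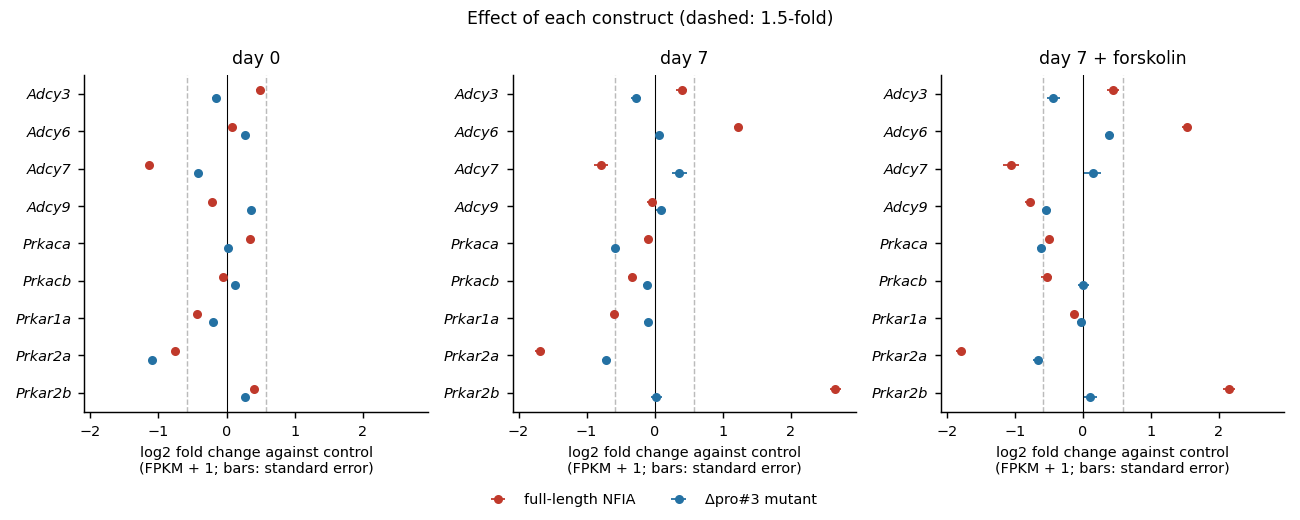
Log2 fold change (x axis, FPKM + 1) of the 9 tested genes against control cells at the 3 stages, with full-length NFIA in red and the Δpro#3 mutant in blue. Points are limma estimates, bars are standard errors, and dashed lines mark 1.5-fold. Prkar2b at day 7 is at 2.65 with full-length NFIA and at 0.02 with the mutant, while Prkar2a is left of the line for both constructs at all 3 stages.

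Prkar2b (chr12:32643341-32746161, minus strand, mouse build NCBIM37, which is mm9) encodes the regulatory subunit RIIβ and had the widest range of group means among the 10 genes on the log2(FPKM + 1) scale, while by FPKM alone Adcy3, at low levels, had the widest relative range of the 9 tested genes (0.200 to 2.41 FPKM). At day 0 it was at 34.9, 33.7 and 33.5 FPKM in the 3 control samples, at 45.4, 43.9 and 46.8 FPKM with full-length NFIA and at 40.8, 41.9 and 41.8 FPKM with the mutant. All samples with either construct lay above all control samples, but the differences of 0.40, SE 0.031, and 0.28, SE 0.031, on the log2 scale were under 1.5-fold. At day 7, it was at 18.4, 20.6 and 17.4 FPKM in control cells, at 126, 126 and 118 FPKM with full-length NFIA and at 20.3, 16.9 and 20.1 FPKM with the mutant. The full-length NFIA-expressing samples stood apart, 6.56 times the control by mean FPKM (log2 fold change 2.65, SE 0.081, limma adjusted p = 1.34e-09), whereas the mutant and the control overlapped (log2 fold change 0.02, SE 0.081, limma adjusted p = 0.846). After forskolin full-length NFIA-expressing cells again stood apart, with 21.9, 20.9 and 24.7 FPKM in control cells, 90.6, 108 and 113 FPKM with full-length NFIA (log2 fold change 2.15, SE 0.09, limma adjusted p = 4.18e-09) and 23.3, 23.7 and 26.1 FPKM with the mutant (log2 fold change 0.11, SE 0.09, limma adjusted p = 0.335). Between the mutant and full-length NFIA at day 7, Prkar2b was lower with the mutant (log2 fold change -2.63, SE 0.081, limma adjusted p = 2.52e-09). In the order of the 9 group means, the 3 groups of full-length NFIA came first, then the mutant and control cells at day 0, and last the 4 groups of control and mutant-expressing cells at day 7. Neighbours in that order overlapped for the mutant and the control with forskolin, and for both without it.

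Prkar2a (chr9:108594474-108651843, plus strand, with a U6 gene on the other strand) encodes the related subunit RIIα and moved the other way with full-length NFIA. It was at 18.7, 19.3 and 20.5 FPKM in control cells at day 0, at 11.5, 11.4 and 10.6 FPKM with full-length NFIA (log2 fold change -0.75, SE 0.054, limma adjusted p = 2.72e-07) and at 8.64, 8.03 and 9.20 FPKM with the mutant (log2 fold change -1.09, SE 0.054, limma adjusted p = 2.62e-08). At day 0 all mutant samples were below all full-length NFIA-expressing samples, but the difference of -0.34, SE 0.054, was under 1.5-fold. Control cells at day 7 held 41.4, 42.1 and 44.1 FPKM, full-length NFIA-expressing cells 13.1, 11.5 and 12.9 FPKM (log2 fold change -1.69, SE 0.073, limma adjusted p = 1.40e-08) and mutant-expressing cells 23.2, 27.7 and 26.1 FPKM (log2 fold change -0.71, SE 0.073, limma adjusted p = 4.09e-05). The mutant thus lay between the other two groups at day 7, above full-length NFIA by 0.98 on the log2 scale (SE 0.073, limma adjusted p = 1.12e-06). With forskolin, Prkar2a was at 37.8, 40.7 and 38.3 FPKM in control cells, 9.51, 11.1 and 11.02 FPKM with full-length NFIA and 24.96, 24.6 and 23.4 FPKM with the mutant. In the order of the 9 group means, control cells at day 7 came first and the mutant at day 0 last, and the full-length NFIA-expressing groups of the 3 stages overlapped their neighbours among themselves. Neither construct overlapped the control with forskolin, with log2 fold changes of -1.79 (limma adjusted p = 1.58e-09) and -0.66 (limma adjusted p = 2.01e-05).

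Prkar1a (chr11:109510719-109530970, plus strand) encodes RIα, the regulatory subunit found in nearly all tissues. It was at 199.9, 194 and 196 FPKM in control cells at day 0, at 147, 149 and 139 FPKM with full-length NFIA and at 170.4, 171 and 172 FPKM with the mutant. The 3 groups did not overlap, but the log2 fold changes of -0.44 and -0.20 were under 1.5-fold. At day 7 it was at 139, 141 and 139.6 FPKM in control cells and 92.6, 89.4 and 94.2 FPKM with full-length NFIA, a difference just past 1.5-fold (log2 fold change -0.60, SE 0.051, limma adjusted p = 2.14e-06) that was -0.51 after scaling by median ratios and -0.58 without replicate 2 of full-length NFIA-expressing cells, and so was not called under either. The mutant-expressing samples held 123, 131 and 137 FPKM (log2 fold change -0.10, SE 0.051, limma adjusted p = 0.125). After forskolin, the values in control (159, 150.0 and 162 FPKM), full-length NFIA-expressing (140.0, 146 and 145 FPKM) and mutant-expressing cells (154, 155 and 151 FPKM) differed by less than 1.5-fold. The difference between full-length NFIA and control at that stage, -0.13 on the log2 scale, was 0.04 relative to the median of all genes.

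Within the regulatory subunits, the share of Prkar2b in the summed FPKM of the 3 genes was 9.27, 10.1 and 8.65% in the control samples of day 7 and 54.3, 55.4 and 52.5% with full-length NFIA. In mutant-expressing cells it was 12.2, 9.62 and 10.995%, which overlapped the control (exact permutation test, two-sided p = 0.200, n = 3 each). Full-length NFIA-expressing cells at day 7 were the only one of the 9 groups in which Prkar2b had the largest mean share, with Prkar1a at 40.4 ± 1.19% (SD, n = 3) against 69.5 ± 0.332% in control cells. The share of Prkar2a was 5.49 ± 0.354% with full-length NFIA and 21.1 ± 0.689% in control cells at day 7 (SD, n = 3 each). At day 0, Prkar2b took 13.6% in control cells, 22.5% with full-length NFIA and 18.8% with the mutant, and the groups did not overlap. The ratio of Prkar2b to Prkar2a FPKM was 0.443 ± 0.0474 in control cells, 9.88 ± 0.902 with full-length NFIA and 0.752 ± 0.133 with the mutant at day 7 (SD, n = 3 each). Of 36 such comparisons of shares and of the ratio of regulatory to catalytic subunits with the control, 34 reached 0.1, the smallest two-sided p that 3 samples against 3 allow in an exact permutation test (Benjamini-Hochberg adjusted p = 0.106), so none could pass 0.05.

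**Figure D3:**
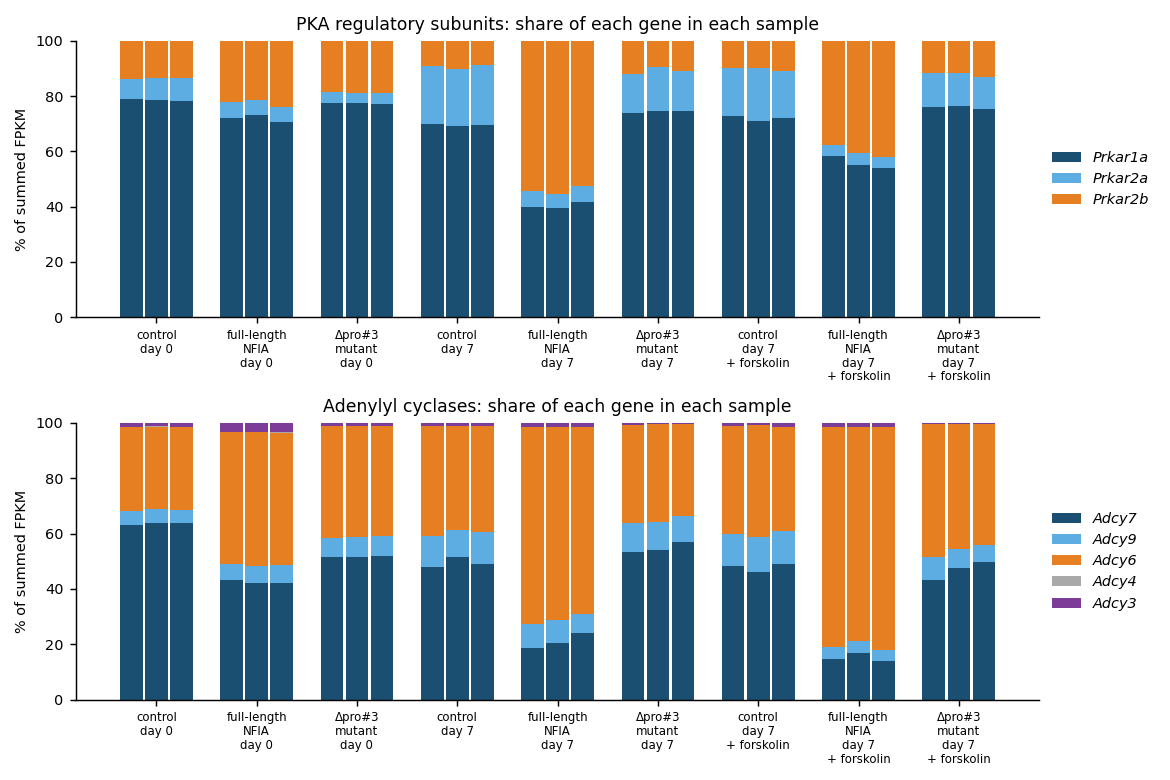
Share (y axis, % of summed FPKM) of each of the 3 PKA regulatory subunits (upper panel) and of each of the 5 adenylyl cyclases (lower panel) in each of the 27 samples, 1 bar per sample and 3 bars per group. Adcy4 is too low to be seen. Prkar2b and Adcy6 (both orange) take 54.1% and 69.6% on average in full-length NFIA-expressing cells at day 7, against 9.34% and 38.7% in control cells.

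Among the cyclases, full-length NFIA went with higher Adcy6 at day 7 and lower Adcy7 at all 3 stages. Adcy6 (chr15:98420425-98438064, minus strand) encodes a cyclase that calcium and Gi proteins inhibit. At day 0 it was at 31.4, 32.3 and 33.3 FPKM in control cells, 34.4, 35.4 and 32.9 FPKM with full-length NFIA and 39.9, 38.4 and 39.6 FPKM with the mutant. Control and full-length NFIA-expressing cells overlapped, and the mutant lay above both by less than 1.5-fold (log2 fold change 0.28, SE 0.035, limma adjusted p = 5.20e-05 against control). At day 7 it was at 23.5, 22.5 and 20.5 FPKM in control cells, 52.8, 53.01 and 53.5 FPKM with full-length NFIA (log2 fold change 1.23, SE 0.054, limma adjusted p = 1.75e-08) and 23.6, 23.05 and 22.9 FPKM with the mutant (log2 fold change 0.07, SE 0.054, limma adjusted p = 0.346). Full-length NFIA-expressing cells stood apart from both other groups. After forskolin, the values were 22.3, 23.01 and 20.9 FPKM, 60.5, 66.6 and 69.2 FPKM (log2 fold change 1.53, SE 0.068, limma adjusted p = 6.67e-09) and 27.9, 28.6 and 31.3 FPKM (log2 fold change 0.39, SE 0.068, limma adjusted p = 8.29e-04) in the same order of cells. The mutant's rise over control after forskolin did not reach 1.5-fold, although its 3 samples were all above the control samples.

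Adcy7 (chr8:90796302-90853861, plus strand) encodes a cyclase that Gβγ and protein kinase C can stimulate. It was the leading cyclase of control cells, at 65.3, 69.5 and 70.8 FPKM at day 0, and was at 31.5, 30.9 and 29.1 FPKM with full-length NFIA (log2 fold change -1.14, SE 0.039, limma adjusted p = 5.86e-10) and at 51.3, 49.9 and 51.7 FPKM with the mutant (log2 fold change -0.42, SE 0.039, limma adjusted p = 4.35e-06). The 3 groups did not overlap, and the mutant differed from the control by less than 1.5-fold. At day 7, Adcy7 was at 28.2, 30.6 and 26.1 FPKM in control cells, 13.8, 15.6 and 18.9 FPKM with full-length NFIA (log2 fold change -0.79, SE 0.10, limma adjusted p = 5.92e-05) and 35.4, 35.1 and 39.7 FPKM with the mutant (log2 fold change 0.36, SE 0.10, limma adjusted p = 0.0152). Thus the mutant was below the control at day 0 and above it at day 7, in both cases by under 1.5-fold. After forskolin, it was at 27.6, 26.4 and 27.1 FPKM, 11.2, 14.6 and 11.9 FPKM (log2 fold change -1.06, SE 0.12, limma adjusted p = 1.19e-05) and 25.2, 30.01 and 35.6 FPKM (log2 fold change 0.14, SE 0.12, limma adjusted p = 0.348), and the mutant-expressing samples ranged from below to above the control samples.

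As a share of the summed FPKM of the 5 cyclases, Adcy6 rose from 38.7 ± 1.09% in control cells to 69.6 ± 1.83% with full-length NFIA at day 7, and was 34.7 ± 1.45% with the mutant (SD, n = 3 each). Adcy7 took 49.4 ± 1.81%, 21.02 ± 2.65% and 54.8 ± 2.07% in the same cells. These shares did not overlap between either construct and the control (exact permutation test, two-sided p = 0.1 for each, the smallest the design allows). The ratio of Adcy6 to Adcy7 FPKM was 0.472, 1.12 and 0.772 at day 0 in control, full-length NFIA-expressing and mutant-expressing cells. After forskolin it was 0.816, 5.26 and 0.981. With the mutant after forskolin, the share of Adcy7 was 46.96 ± 3.30% against 47.8 ± 1.37% in control cells (exact permutation test, two-sided p = 0.800, n = 3 each), and leaving out replicate 1 of the mutant-expressing cells turned that difference from -0.841 to 0.965 percentage points.

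Adcy9 (chr16:4287529-4420498, minus strand) encodes a widely expressed cyclase that responds little to forskolin. A predicted gene, Gm6142, overlaps it on the same strand, and fragments there could belong to either. It was at 5.04, 5.45 and 5.31 FPKM in control cells, 4.21, 4.49 and 4.48 FPKM with full-length NFIA and 6.93, 6.97 and 7.29 FPKM with the mutant at day 0, without overlap and with log2 fold changes of -0.22 and 0.36 that were under 1.5-fold. At day 7 the control held 6.57, 5.84 and 6.18 FPKM, full-length NFIA 6.32, 6.09 and 5.52 FPKM and the mutant 7.10, 6.46 and 6.52 FPKM, and the control samples overlapped both other groups. After forskolin, Adcy9 was at 6.63, 7.15 and 6.72 FPKM in control cells, 3.31, 3.76 and 3.59 FPKM with full-length NFIA (log2 fold change -0.78, SE 0.07, limma adjusted p = 1.98e-06) and 4.70, 4.16 and 4.34 FPKM with the mutant (log2 fold change -0.54, SE 0.07, limma adjusted p = 1.25e-04). Both constructs were below the control there, the mutant by less than 1.5-fold on this scale. With a pseudocount of 0.1 (-0.62) and with limma-voom (-0.64), Adcy9 was called lower with the mutant too.

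Adcy3 (chr12:4133103-4213525, plus strand, with Cenpo overlapping on the other strand) encodes the cyclase of olfactory neurons, which is also found in fat. It was at 1.38, 1.38 and 1.53 FPKM in control cells, 2.43, 2.42 and 2.37 FPKM with full-length NFIA and 1.25, 1.13 and 1.15 FPKM with the mutant at day 0. At day 7 the values were 0.611, 0.603 and 0.577 FPKM, 1.10, 1.13 and 1.07 FPKM and 0.393, 0.241 and 0.334 FPKM, so full-length NFIA was above and the mutant below the control at both stages. After forskolin, Adcy3 was at 0.626, 0.489 and 0.748 FPKM, 1.15, 1.33 and 1.11 FPKM and 0.272, 0.138 and 0.191 FPKM in the same order of cells, again without overlap. The log2 fold changes of full-length NFIA against control, 0.49, 0.40 and 0.44 at the 3 stages, stayed under 1.5-fold on the FPKM + 1 scale. With a pseudocount of 0.1 they were 0.71, 0.79 and 0.86, and those of the mutant at day 7 and after forskolin were -0.74 and -1.27, all of them called. The mutant and control samples together averaged under 0.5 FPKM at day 7 and after forskolin. Adcy3 was tested between them only because full-length NFIA-expressing samples raised the mean of the stage. In a fit of the mutant and control alone it was not tested at these stages. The mutant was below full-length NFIA at each stage (log2 fold change -0.67, SE 0.079, limma adjusted p = 3.80e-05 at day 7), and with a pseudocount of 0.1 that value at day 7 was -1.52.

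Of the catalytic subunits, Prkaca was called in 1 of the 9 comparisons between constructs and Prkacb in 0. Prkaca (chr8:86496877-86520344, plus strand) encodes Cα, the main catalytic subunit of most cells. At day 0 it was at 62.7, 62.8 and 62.3 FPKM in control cells, 80.5, 80.5 and 78.99 FPKM with full-length NFIA (log2 fold change 0.35, SE 0.025, limma adjusted p = 3.14e-07) and 62.2, 63.3 and 64.7 FPKM with the mutant. Day 7 gave 111, 111 and 112 FPKM in control cells, 109, 104 and 98.4 FPKM with full-length NFIA (log2 fold change -0.10, SE 0.048, limma adjusted p = 0.0758) and 74.4, 74.2 and 73.7 FPKM with the mutant (log2 fold change -0.58, SE 0.048, limma adjusted p = 1.10e-05). The mutant-expressing samples were the lowest, at a difference just under 1.5-fold that passed it without replicate 1 of these cells (-0.59), whose adipocyte markers were the highest of the 3, and with a pseudocount of 0.1 (-0.59). After forskolin, Prkaca was at 100.1, 104 and 98.1 FPKM in control cells, 73.8, 69.6 and 70.5 FPKM with full-length NFIA (log2 fold change -0.49, SE 0.051, limma adjusted p = 6.48e-06) and 67.3, 65.8 and 62.9 FPKM with the mutant (log2 fold change -0.62, SE 0.051, limma adjusted p = 5.15e-06). The last was called, but was -0.57 and not called after scaling by median ratios.

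Prkacb (chr3:146392543-146475924, minus strand) encodes Cβ. At day 0 it was at 25.1, 25.4 and 25.6 FPKM in control cells, 24.3, 25.4 and 23.7 FPKM with full-length NFIA (-0.05, SE 0.032) and 28.4, 27.5 and 27.2 FPKM with the mutant (0.12, SE 0.032). It was at 22.4, 22.3 and 20.1 FPKM in control cells, 17.5, 16.7 and 16.6 FPKM with full-length NFIA (log2 fold change -0.33, SE 0.057, limma adjusted p = 3.94e-04) and 19.1, 19.98 and 20.4 FPKM with the mutant at day 7. After forskolin, full-length NFIA-expressing cells held 12.1, 14.8 and 14.6 FPKM, below the 19.8, 19.7 and 21.5 FPKM of control cells (log2 fold change -0.53, SE 0.083, limma adjusted p = 1.59e-04). The mutant held 18.9, 21.8 and 20.7 FPKM (0.01, SE 0.083), which overlapped the control. The ratio of the summed FPKM of regulatory to catalytic subunits was 2.85 ± 0.0409 in control cells, 1.93 ± 0.0157 with full-length NFIA and 2.43 ± 0.00308 with the mutant at day 0 (SD, n = 3 each). At day 7 it was 1.51 ± 0.0244, 1.89 ± 0.0692 and 1.86 ± 0.0829, and after forskolin 1.80 ± 0.0883, 3.03 ± 0.203 and 2.36 ± 0.0392. Both constructs were therefore below the control at day 0 and above it at day 7 and after forskolin, without overlap of any construct with the control.

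Between day 0 and day 7, Prkar2b rose with full-length NFIA and fell in the other cells, and Prkar2a rose in control and mutant-expressing cells. In control cells, 5 of the 9 tested genes were called (with 39.6% of all genes tested), in full-length NFIA-expressing cells 5 (38.9%) and in mutant-expressing cells 4 (37.1%). Prkar2b fell in control cells (log2 fold change -0.83, SE 0.063, limma adjusted p = 2.61e-09) and with the mutant (log2 fold change -1.08, SE 0.063, limma adjusted p = 8.94e-11), and rose with full-length NFIA (log2 fold change 1.42, SE 0.063, limma adjusted p = 1.67e-12). The difference between the changes with full-length NFIA and in control cells was 2.25 (limma adjusted p = 1.48e-12). Adcy6 rose with full-length NFIA (log2 fold change 0.62, SE 0.044, limma adjusted p = 9.23e-10) and fell with the mutant (log2 fold change -0.74, SE 0.044, limma adjusted p = 1.23e-10), and in control cells its change of -0.53 was under 1.5-fold.

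Prkar2a, in contrast, rose over differentiation in control cells (log2 fold change 1.09, SE 0.066, limma adjusted p = 1.29e-10) and with the mutant (log2 fold change 1.47, SE 0.066, limma adjusted p = 3.02e-12), whereas its value with full-length NFIA was 0.15 (SE 0.066). Prkaca rose in control cells (log2 fold change 0.82, SE 0.035, limma adjusted p = 1.45e-12), and its values with full-length NFIA and the mutant were 0.37 and 0.22. Adcy7 fell in control cells (log2 fold change -1.25, SE 0.083, limma adjusted p = 4.35e-10) and with full-length NFIA (log2 fold change -0.89, SE 0.083, limma adjusted p = 3.19e-08), and changed by -0.46, under 1.5-fold, with the mutant. Adcy3 fell in all 3 kinds of cells, with log2 fold changes of -0.61 in control, -0.70 in full-length NFIA-expressing and -0.72 in mutant-expressing cells. With a pseudocount of 0.1 these were -1.13, -1.06 and -1.61. On the FPKM + 1 scale, the fall in control cells was not called after scaling by median ratios (-0.57) or without replicate 3 of day 0 (-0.58). Prkar1a fell with full-length NFIA (log2 fold change -0.65, SE 0.04, limma adjusted p = 1.22e-10), a call lost after the same scaling (-0.51), and had -0.49 in control cells and -0.39 with the mutant, both under 1.5-fold. Differences between constructs in the change from day 0 to day 7 were called in 3 of 9 genes for full-length NFIA against control (37.5% of all genes), in 2 for the mutant against control (14.8%) and in 3 for the mutant against full-length NFIA (29.4%). At more than 3-fold, 1 of the 9 genes, Prkar2b, was called in the first (7.62% of all genes) and in the last (5.40%). In full-length NFIA-expressing cells the median of all genes changed by -0.11, and relative to it Prkar2b had 1.53, Adcy6 0.73, Adcy7 -0.78, Adcy3 -0.59 and Prkar1a -0.54.

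**Figure D4:**
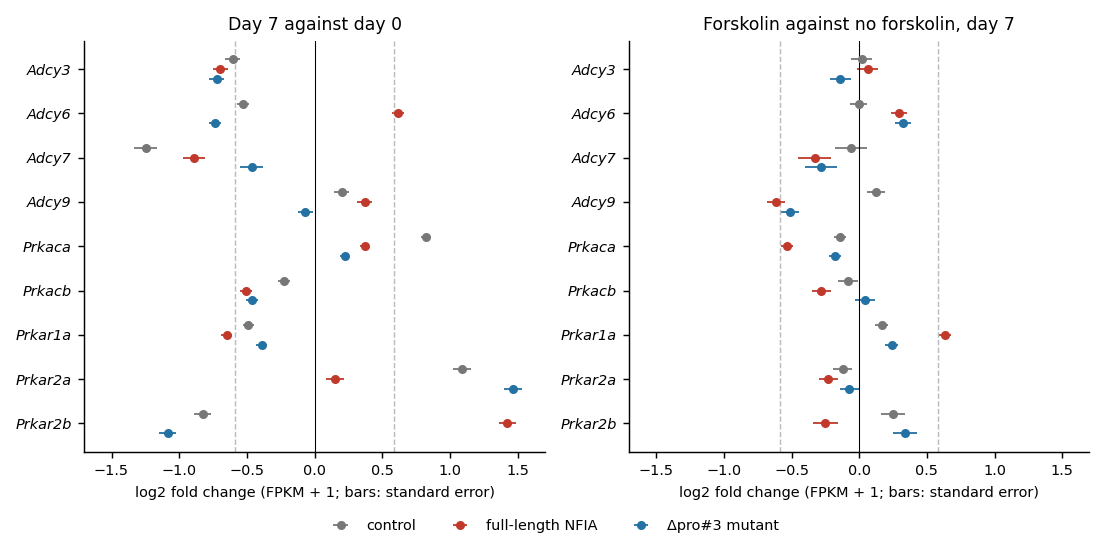
Log2 fold change (x axis, FPKM + 1) of the 9 tested genes between day 0 and day 7 (left) and between day 7 without and with forskolin (right), in control (grey), full-length NFIA-expressing (red) and Δpro#3 mutant-expressing cells (blue). Points are limma estimates, bars standard errors and dashed lines 1.5-fold. Prkar2b lies at 1.42 with full-length NFIA and at -0.83 and -1.08 in the other cells on the left, and on the right all points lie between -0.61 and 0.63.

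Forskolin activates most adenylyl cyclases directly, and after 4 hours of it the log2 fold changes of the 9 tested genes lay between -0.61 and 0.63. Of 9 early cyclic AMP response genes, among them Nr4a1, 6 rose in control cells, 9 with full-length NFIA and 8 with the mutant. Of the cyclases and PKA subunits, none of the 9 tested was called in control cells by limma (4.14% of all genes were called), where 3 had an unadjusted p under 0.05 and limma-voom on the fragments also called 0. With the mutant, 0 of 9 were called (7.43% of all genes), with 6 at an unadjusted p under 0.05 and 1 called by limma-voom. With full-length NFIA, 2 of 9 were called (13.5% of all genes), Prkar1a higher and Adcy9 lower. The median of all genes lay at -0.15 in that comparison.

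Prkar1a went from 92.6, 89.4 and 94.2 FPKM to 140.0, 146 and 145 FPKM with forskolin in full-length NFIA-expressing cells, without overlap (log2 fold change 0.63, SE 0.046, limma adjusted p = 1.10e-08, or 0.79 relative to the median of all genes). Its values in control cells (0.17, SE 0.046) and with the mutant (0.24, SE 0.046) were under 1.5-fold, and the difference between the responses with full-length NFIA and in control cells was 0.47 (SE 0.065, limma adjusted p = 5.25e-05), also under 1.5-fold. Adcy9 went from 6.32, 6.09 and 5.52 to 3.31, 3.76 and 3.59 FPKM in full-length NFIA-expressing cells (log2 fold change -0.61, SE 0.066, limma adjusted p = 1.03e-06, or -0.46 relative to the median of all genes). This call was lost after scaling by median ratios (-0.52) and without replicate 1 of either group (-0.58 in both cases). In mutant-expressing cells its value was -0.51, SE 0.066, and in control cells 0.12, SE 0.066. The response of Adcy9 with full-length NFIA was lower than that in control cells, with a difference of -0.74 (limma adjusted p = 2.14e-05), where 1 of 9 genes was called beside 10.0% of all genes. With the mutant the difference was -0.63 (limma adjusted p = 7.79e-04), where 1 of 9 was called beside 2.33%. Cell-type markers moved as well. The sums of the 10 adipocyte markers with forskolin were 318 to 332 FPKM in control, 13104 to 13831 FPKM in full-length NFIA-expressing and 558 to 924 FPKM in mutant-expressing cells. With full-length NFIA 3 of 10 fell, beside 13.5% of all genes called, and with the mutant 7 of 10, beside 7.43%. Without forskolin the mutant's sums were 639 to 2068 FPKM, the highest being replicate 1, which stood apart. Those of the 14 muscle markers were 16967 to 19791, 2185 to 2643 and 16157 to 18132 FPKM, with 2 of 14 lower in the mutant, and the part of either in the responses was not tested. Between the mutant and full-length NFIA, the response of 1 of 9 genes differed (with 6.53% of all genes). This was Prkar2b, with -0.25, SE 0.09, with full-length NFIA and 0.34, SE 0.09, with the mutant, and the difference of 0.59 was called by a margin that scaling by median ratios (0.50) or leaving out any of 5 samples (0.50 to 0.58) removed. Prkaca in full-length NFIA-expressing cells had -0.53, SE 0.045, or -0.38 relative to the median of all genes, under 1.5-fold on either scale.

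Because forskolin acts through cyclic AMP, the promoters of the 10 genes were searched for the cyclic AMP response element, in its palindromic form TGACGTCA and as the shorter TGACG, on both strands. The palindrome contains the shorter form. RefSeq promoter windows of build GRCm38.p6 (250 bases before to 50 bases after each start) were available for 9 of the 10 genes, Adcy6 excepted, in 21 windows. Prkar1a alone held the palindrome, which 2.03% of all genes with a window hold, and 6 of the 9 (Adcy7, Adcy9, Prkaca, Prkacb, Prkar1a and Prkar2a) held TGACG, which 23.1% of all genes hold. Genes with more windows have more chances of a match, and Prkar1a had 6 of the 21. By window, TGACG was in 8 of 21 against 20.8% of all windows, and the palindrome in 2 of 21 against 1.79%. Both palindrome matches are 1 site of Prkar1a seen in 2 overlapping windows, and 1 of its TGACG sites is likewise seen from 2 starts. The sites of Prkar1a and Adcy9, the 2 genes called with forskolin, are printed with the motif in capitals, each in 30 bases written 5′ to 3′ on the gene's strand, and CGTCA is TGACG on the other strand.
Prkar1a, chr11:109650889-109650918, plus strand, first motif base at -49 from a start: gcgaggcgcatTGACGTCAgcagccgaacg
Prkar1a, chr11:109650750-109650779, plus strand, first motif base at -100 from a start: gttctagctagaTGACGacgggctaagggt
Prkar1a, chr11:109649200-109649229, plus strand, first motif base at -151 from a start: tttgcttttattCGTCAgtgttaatacagt
Adcy9, chr16:4420505-4420534, minus strand, first motif base at -24 from a start: cggacccggcggTGACGtgcgcgggccgcg
These matches describe the letters in these windows, and binding was not measured at them here.

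Other genes of the pathway were followed from lists of cyclases, PKA subunits and inhibitors, G proteins, anchoring proteins, other cyclic AMP effectors and CREB coactivators. At day 7, 35.5% of all genes were called with full-length NFIA and 12.7% with the mutant. Both tested PKA inhibitors were lower with full-length NFIA at all 3 stages, beside 24.5% (day 0), 35.5% (day 7) and 34.5% (with forskolin) of all genes called. With the mutant, both were lower at day 0, beside 14.0% of all genes called. Pkia, which binds and inhibits free catalytic subunits, was at 37.05, 42.6 and 37.9 FPKM in control cells, 13.9, 12.3 and 14.005 FPKM with full-length NFIA (log2 fold change -1.48, SE 0.12, limma adjusted p = 1.16e-06) and 25.9, 32.8 and 37.3 FPKM with the mutant (-0.30, SE 0.12) at day 7. At day 0 it was lower with both constructs, with log2 fold changes of -1.88 and -1.79 (limma adjusted p = 2.39e-10 and 9.13e-10). Pkig, another inhibitor of the same family, was lower at day 7 with full-length NFIA (log2 fold change -1.33, SE 0.075, limma adjusted p = 9.73e-08) and had -0.30, SE 0.075, with the mutant. At day 0 it was lower with both, with log2 fold changes of -0.65 and -0.73 (limma adjusted p = 3.97e-08 and 3.32e-08).

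Of 9 tested A-kinase anchoring proteins, which tether PKA to sites in the cell, 1 was higher and 1 lower with full-length NFIA at day 7, beside 35.5% of all genes called in either direction. Akap12, a scaffold at the plasma membrane, was at 1.11, 1.27 and 0.888 FPKM in control cells and 12.9, 11.6 and 11.4 FPKM with full-length NFIA (log2 fold change 2.64, SE 0.085, limma adjusted p = 1.87e-09), and at 1.20, 1.13 and 1.13 FPKM with the mutant. Akap6, a muscle anchoring protein of the nuclear envelope, fell with full-length NFIA (log2 fold change -1.99, SE 0.06, limma adjusted p = 1.33e-09). The mutant had -0.23, SE 0.06, for Akap6, and 1 of the 9, Akap7, was higher with it (log2 fold change 0.62, SE 0.10, limma adjusted p = 8.52e-04). Among 4 tested effectors of cyclic AMP other than PKA, the Popeye genes Bves, Popdc2 and Popdc3, which are muscle proteins that bind cyclic AMP, fell with full-length NFIA at day 7, with log2 fold changes of -2.53, -1.68 and -2.45. Rapgef3, which encodes the exchange factor EPAC1, was lower at day 7 with the mutant (log2 fold change -1.15, SE 0.092, limma adjusted p = 9.34e-06) and had -0.47, SE 0.092, with full-length NFIA. The muscle marker sums given above moved with these 3 Popeye genes and Akap6, and their part in the falls was not tested.

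None of the 4 tested G protein α subunits and none of the 7 CREB family members and coactivators was called by limma at day 7 with either construct, nor by limma-voom, where 35.5% of all genes were called with full-length NFIA and 12.7% with the mutant. With full-length NFIA, 2 of the 4 and 4 of the 7 had an unadjusted p under 0.05, and with the mutant 1 of the 4 and 1 of the 7. Gnao1, an inhibitory α subunit, was the only one of the 4 called with forskolin in control cells, where it went from 17.9, 17.9 and 16.7 to 37.4, 38.97 and 34.7 FPKM (log2 fold change 1.04, SE 0.053, limma adjusted p = 1.00e-09). With full-length NFIA it had 0.24, SE 0.053, and with the mutant 0.42, SE 0.053. The only further cyclase that passed the filter was Adcy8, a calcium-stimulated cyclase, at 0.0669, 0.0802 and 0.0380 FPKM in control cells and 2.93, 2.74 and 2.45 FPKM with full-length NFIA at day 0 (log2 fold change 1.80, SE 0.066, limma adjusted p = 1.09e-09). Adcy8 passed the filter at day 0 only through the full-length NFIA-expressing samples, so this test is given as a description. With the mutant at day 0, Adcy8 was not called against control by limma, but was by limma-voom. At day 7 its log2 fold changes of 0.34 with full-length NFIA and 0.36 with the mutant were under 1.5-fold on the FPKM + 1 scale, but limma-voom on the fragments called both. With forskolin it was at 0.506, 0.673 and 0.375 FPKM in control cells, 1.08, 1.10 and 1.16 FPKM with full-length NFIA (0.48, SE 0.16, called by limma-voom and not by limma on FPKM + 1) and 2.84, 1.45 and 1.44 FPKM with the mutant (log2 fold change 0.91, SE 0.16, limma adjusted p = 9.13e-04), whose replicate 1 was the highest.

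**Figure D5:**
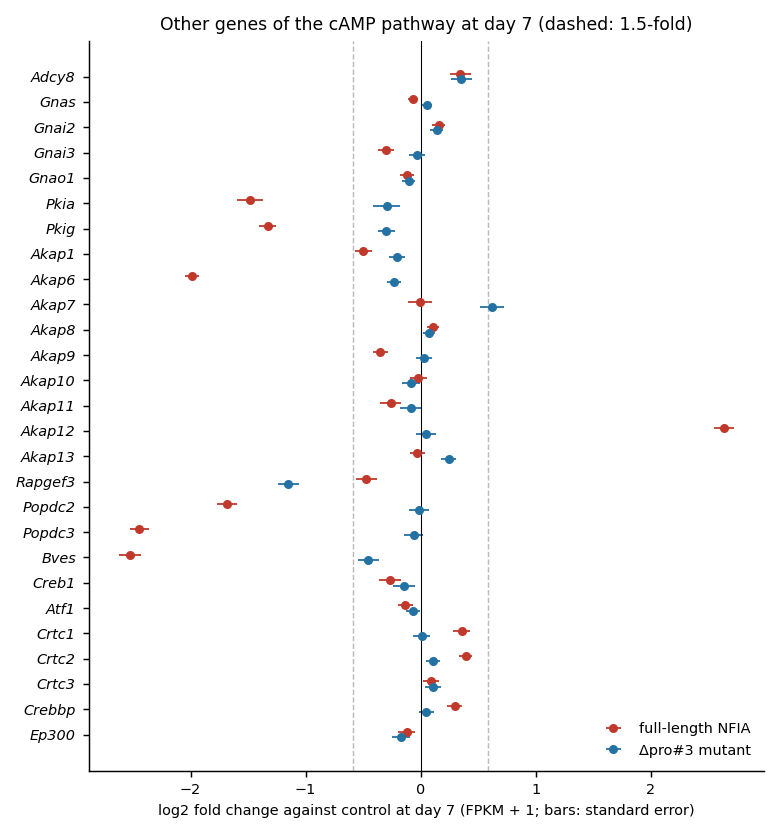
Log2 fold change (x axis, FPKM + 1) at day 7 against control cells for each tested gene of the other lists of the pathway, with full-length NFIA in red and the Δpro#3 mutant in blue. Points are limma estimates, bars standard errors and dashed lines 1.5-fold. Akap12 is at 2.64 and Akap6, Pkia, Pkig and the 3 Popeye genes are between -2.53 and -1.33 with full-length NFIA, while with the mutant Rapgef3 (-1.15) and Akap7 (0.62) lie outside the lines.

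Genes with the pattern most like that of the 3 members with the widest ranges on the log2(FPKM + 1) scale, which leaves out Adcy3, were found by Pearson's r between mean log2(FPKM + 1) over the 9 groups, among 11582 genes. The nearest to Prkar2b were Lpcat3 (r = 0.987), Me1 (0.982) and Tmem120a (0.982). For Adcy7 they were Pik3ca (0.985), Zbtb42 (0.984) and Axl (0.981), and for Prkar2a they were Abcb6 (0.988), Trub1 (0.983) and Macf1 (0.976). The 9 means share constructs and stages, and the values are given as a description.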

How the data were processed

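PolyA RNA of 27 C2C12 samples was sequenced as paired-end, stranded libraries. The deposited values are FPKM. According to the methods, the authors aligned reads to mm9 with STAR 2.5.3a, kept uniquely mapped reads, counted those on the matched strand and calculated FPKM from these counts. The methods name no further scaling between samples, and none was applied here in the main test. Samples were grouped by the labels, and none was left out. The 10 members and the gene lists were chosen with earlier results of these data known. Named genes were every member, up to 3 called genes of each list with the largest changes, and the 3 genes most correlated with each of the 3 members with the widest range of group means of log2(FPKM + 1).

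FPKM were taken as log2(FPKM + 1) for genes with a mean of at least 0.5 FPKM and fitted with limma 3.58.1 (trend, R 4.3.3), with the 9 samples of a stage for constructs and the 18 samples of 2 stages for forskolin and differentiation. Calls needed a Benjamini-Hochberg adjusted p under 0.05 and more than 1.5-fold. Shares were compared by two-sided exact permutation tests (Python 3.11.15, scipy 1.17.1). The FPKM times length gave back whole fragments within 0.02 of a fragment for 100% of values, 9567769 to 27230965 fragments per sample (median 17707223). Intervals and floors from these cover counting error only. No sample repeated another of its group, since replicates differed by more than sampling noise, and samples of different groups were not compared in this way. Alternatives were a pseudocount of 0.1, median-ratio scaling, no filter or a mean of at least 5 FPKM, limma-voom on the fragments, the replicate number as a block, a fit of the groups compared alone, a 3-fold threshold, shares of fragments, and each sample left out in turn. For full-length NFIA against control at day 0, limma was also run on simulated data with 200 changed genes among 12100. It called 199 of these and 5 others. How this bears on calls close to 1.5-fold in the real samples was not tested.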

Additional observations from a re-analysis of the deposited data

Results flagged for a closer look

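These results are listed because the same change differed between kinds of cells by more than 1.5-fold, in limma's test of the difference itself. Of 54 such differences (9 genes in 6 comparisons), 11 passed. Over all genes, the differences called were 37.5% (full-length NFIA minus control), 14.8% (mutant minus control) and 29.4% (mutant minus full-length NFIA) for the change from day 0 to day 7, where 3, 2 and 3 of 9 members passed. For the response to forskolin they were 10.0%, 2.33% and 6.53%, where 1 of 9 members passed in each. For the change from day 0 to day 7, full-length NFIA minus control was 1.15 for Adcy6 (limma adjusted p = 7.64e-11), -0.94 for Prkar2a (limma adjusted p = 1.36e-07) and 2.25 for Prkar2b (limma adjusted p = 1.48e-12). The mutant minus control was 0.78 for Adcy7 (limma adjusted p = 4.65e-05) and -0.60 for Prkaca (limma adjusted p = 5.87e-08), the latter not called after median-ratio scaling (-0.53). The mutant minus full-length NFIA was -1.35 for Adcy6, 1.32 for Prkar2a and -2.51 for Prkar2b (limma adjusted p = 1.60e-11, 3.04e-09 and 6.53e-13). For the response to forskolin, Adcy9 had -0.74 for full-length NFIA minus control and -0.63 for the mutant minus control (limma adjusted p = 2.14e-05 and 7.79e-04), and Prkar2b had 0.59 for the mutant minus full-length NFIA (limma adjusted p = 0.00355), which was also not called after that scaling (0.50). Groups of 3 samples were not searched for outlying single values.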

How the results depend on the processing

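Among 55 called values of the members, 48 kept their direction and call under each alternative in which they were tested, other than the 3-fold threshold. Of the rest, 7 lost the call under at least 1, and 0 reversed. With a mean of at least 5 FPKM, 48 of the 55 were tested. The values of Adcy3, and of Adcy9 for full-length NFIA against control with forskolin, were not tested there. The fit of the groups compared alone covered 28 values, all between constructs. After median-ratio scaling, Prkar1a (full-length NFIA against control at day 7, -0.51, and differentiation with full-length NFIA, -0.51), Prkaca (mutant against control with forskolin, -0.57, and its differentiation difference, -0.53), Adcy9 (forskolin with full-length NFIA, -0.52), Adcy3 (differentiation in control cells, -0.57) and Prkar2b (forskolin difference between mutant and full-length NFIA, 0.50) fell below 1.5-fold. The counts of members called with that scaling were 1 (mutant against control with forskolin), 1 (forskolin with full-length NFIA), 0 (forskolin difference between mutant and full-length NFIA) and 1 (differentiation difference between mutant and control). A pseudocount of 0.1 and limma-voom each called 3 members for the mutant against control at day 7, 4 with forskolin, and 1 for forskolin with the mutant. With a pseudocount of 0.1, the counts against control include Adcy3, which passed the filter there only through the full-length NFIA-expressing samples. With a mean of at least 5 FPKM, 1 was called for the mutant against full-length NFIA at day 0, as Adcy3 was then not tested. At more than 3-fold, 2 members were called for full-length NFIA against control at day 7 and with forskolin, 1 for the mutant against full-length NFIA at the same stages, 1 for each differentiation difference with full-length NFIA, and 0 for every other comparison.

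Leaving out each sample in turn gave 1 to 2 members called for the mutant against control at day 7, 1 to 2 for forskolin with full-length NFIA and 0 to 1 for the forskolin difference between mutant and full-length NFIA. The share of Adcy7 with the mutant minus control after forskolin ranged from -2.27 to 0.965 percentage points and reversed without replicate 1 of the mutant. Adcy9 gained a call for the mutant against full-length NFIA at day 0 without any of 4 samples (0.59), and Prkacb with forskolin without replicate 2 of full-length NFIA or replicate 1 of the mutant (0.59). Deviations of same-numbered samples had mean correlations of -0.0314 to 0.0177. Over 0.1 were 12 of 45 same-numbered pairs among the samples of day 7 with and without forskolin (-0.179 to 0.358). Among those of day 0 and day 7, 1 of 45 was over 0.1, and the numbers were not taken as pairs. These pairs pool samples of the same construct with samples of different constructs, and the replicate block fits the same effect in all constructs. Pairing within a construct was therefore not tested. With the replicate block the members called at day 7 were 5 with full-length NFIA and 1 with the mutant. The replicate block changed none of the 55 calls.

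Over all genes, forskolin changed 507, 1656 and 910 genes in control, full-length NFIA-expressing and mutant-expressing cells, against 768, 2503 and 1396 with a pseudocount of 0.1 and 800, 2556 and 1473 with limma-voom. Median-ratio scaling moved the share of higher genes among those called from 39.1% to 52.9% for full-length NFIA against control with forskolin, from 58.2% to 47.2% for the mutant against full-length NFIA with forskolin, and from 29.3% to 47.1% for forskolin with full-length NFIA. For differentiation it moved from 43.0% to 53.3% with full-length NFIA and from 41.5% to 51.7% with the mutant. For the forskolin differences it moved from 32.8% to 43.7% (full-length NFIA minus control) and from 65.6% to 51.6% (mutant minus full-length NFIA). With a mean of at least 5 FPKM, fewer genes were tested (8283 to 8911), and the counts fell from 2962 to 1920, 1694 to 1024 and 1891 to 1202 at day 0 (full-length NFIA minus control, mutant minus control, mutant minus full-length NFIA), and for the mutant against control from 1568 to 1007 at day 7 and 1551 to 985 with forskolin. They also fell from 1656 to 1099 for forskolin with full-length NFIA, 1227 to 789 and 800 to 512 for the forskolin differences of full-length NFIA minus control and of the mutant minus full-length NFIA, and 1836 to 1191 for the differentiation difference of mutant and control. Depth limits Adcy4, with a median of 2 fragments per sample, and Adcy3. The called Adcy3 values grew by 1.51 to 3.00 times with a pseudocount of 0.1 or limma-voom, to at most -2.62 (mutant against full-length NFIA with forskolin).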
